A study of Urocitellus parryii with 44 samples.

Results

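Cytochrome c, encoded by Cycs, and cytochrome c1, encoded by Cyc1, were measured by 7 probes on 4 membranes of mouse cDNA, 5 for Cycs and 2 for Cyc1, out of 38400 probes in all. The probes were taken by a rule: every probe whose single gene symbol is Cycs or Cyc1. The pair itself was chosen by measured values, because Cycs stood among the transcripts furthest above summer in torpid animals on these same membranes. The differences between torpor and summer given for the 7 probes are therefore a description, with no test.

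The tissue was brown fat of the arctic ground squirrel (Urocitellus parryii), from 3 summer active animals sampled in August and 5 animals in winter torpor, the hibernator's state of low metabolism and low body temperature. Total RNA was labelled with radioactive phosphorus (33P) and hybridised to the membranes MA07, MA08, MA10 and MA11. Each membrane carries duplicate hybridisations (a and b) for 3 of the animals, summer 1, summer 2 and torpid 5; their log2 values were averaged, which leaves n = 3 against n = 5. Season and activity state changed together and cannot be told apart. The labels state neither age nor sex nor the stage of the torpor bout.

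Cytochrome c is a small heme protein of the space between the mitochondrial membranes. It takes electrons from complex III, of which cytochrome c1 is the heme subunit that hands them over, and carries them to complex IV, cytochrome c oxidase. In brown fat the same chain builds the proton gradient that uncoupling protein dissipates as heat. When cytochrome c leaves the mitochondrion it binds Apaf1 and starts the caspase cascade of apoptosis.

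Cycs signal was higher in torpor by every one of its 5 probes, and Cyc1 signal differed little. The median of the 5 Cycs differences was 2.27 on the log2 scale, a 4.81-fold difference, and the median of the 2 Cyc1 differences was 0.32, or 1.25-fold. Over all 37848 probes tested the median difference was 6.5e-05. All values are log2 of the spot intensity over the median of its membrane column, so that 0 is the median spot, and a level of one probe cannot be set against that of another.

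The MA07 probe of Cycs (probe 1281) showed the widest separation of the groups. The torpid animals 1 to 5 had log2 values of 5.43, 4.96, 4.59, 5.26 and 4.74, and the summer animals 1 to 3 had 2.30, 0.505 and 2.48. The lowest torpid value, of animal 3, stood 2.11 above the highest summer value, also of an animal 3, and neither had duplicates. In the duplicated animals the largest gap between duplicates of this probe was 0.19, which does not measure the spread between animals. On the linear scale the torpid spots were 24.1 to 43.3 times the column median and the summer spots 1.42 to 5.58 times. The difference was 3.24 ± 0.41 (SE), or 9.42-fold.

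A probe of another Cycs clone on MA08 (probe 5903) gave nearly the same difference, 3.26 ± 0.45 (SE), or 9.56-fold. Its torpid values were 5.69, 5.39, 5.24, 5.999 and 4.25 for animals 1 to 5, against 2.72, 0.95 and 2.49 in the summer animals. All 5 torpid animals lay above all summer animals, with a gap of 1.53, and torpid animal 5 was the lowest of its group.

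The same Cycs clone was spotted on MA08 (probe 4359) and on MA11 (probe 5460), which makes these a repeat of one sequence on separate membranes. On MA08 the torpid animals had 3.47, 3.71, 3.42, 3.57 and 2.88 and the summer animals 1.28, 1.06 and 2.19, a difference of 1.90 ± 0.29 (SE). On MA11 the torpid animals had 4.97, 3.89, 3.44, 5.22 and 4.19 and the summer animals 2.36, 1.85 and 2.01, a difference of 2.27 ± 0.38 (SE). The groups did not overlap on either membrane. On MA08, however, the gap of 0.68 between the lowest torpid and the highest summer animal was smaller than the gap of 0.75 between the duplicates of summer animal 2.

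Both membranes thus gave this clone a difference near 2, and the 2 differences lay 0.37 apart. Among 1225 clones of any gene that were tested once each on 2 membranes, the median gap was 0.36, so this clone repeated itself about as well as the others did. Over those clones the differences on the 2 membranes correlated only at r = 0.47. The order of the torpid animals was not repeated: animal 2 was highest on MA08 and animal 4 on MA11, and animals 1, 4 and 5 read 1.31 to 1.65 lower on MA08 than on MA11 while animals 2 and 3 read 0.18 and 0.02 lower.

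The MA10 probe of Cycs (probe 2522) was the only Cycs probe with overlapping groups. Torpid animals 1 to 5 had 3.76, 3.21, 3.29, 2.91 and 1.503, and summer animals 1 to 3 had 2.32, -0.16 and 0.38, so that torpid animal 5 lay below summer animal 1. The difference was 2.09 ± 0.56 (SE). This probe was the dimmest of the 5, at a mean signal percentile of 77.3 against 92.8 to 95.6 for the others, and the duplicates of summer animal 2 differed by 1.64, the largest gap of any of the 7 probes. MA10 was also the membrane whose duplicates repeated least over all its probes: the median gap for a split RNA was 0.47 to 0.87, against 0.23 to 0.40 on the other membranes. The part of membrane noise in the overlap was not tested.

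**Figure D1:**
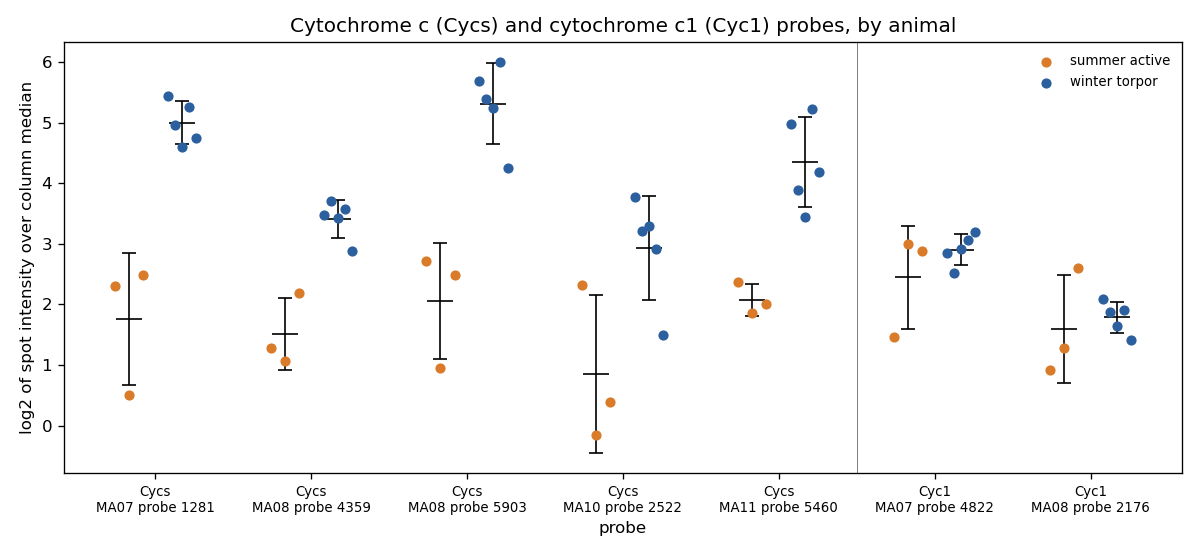
Log2 of spot intensity over the column median (vertical axis) for the 5 Cycs and 2 Cyc1 probes (horizontal axis); each point is 1 animal, orange for summer active (n = 3) and blue for winter torpor (n = 5), with the mean and SD in black. The groups are apart in 4 of the 5 Cycs probes, meet in the MA10 probe, and overlap in both Cyc1 probes.

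Of the 5 Cycs probes, 4 had every torpid animal above every summer animal, against 4.37% of the probes tested, and 4 were called higher by limma at an adjusted p of 0.05, against 0.259% of the probes tested. Because this contrast chose the gene, nothing is read from these shares, and the counts below are a description only. The number of Cycs probes past the threshold moved with the animals. It was 5 without summer animal 1, 2 and 3 without summer animals 2 and 3, and 1, 0, 3, 2 and 3 without torpid animals 1 to 5 in turn, while the median difference stayed between 2.09 and 2.83. Cyclic loess between columns, the second duplicates alone and the replicate block each left 1 probe past the threshold. No Cyc1 probe passed under any setting.

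Both Cyc1 probes had overlapping groups. On MA07 (probe 4822) the torpid animals had 2.84, 2.52, 2.91, 3.06 and 3.19, and the summer animals had 1.47, 2.99 and 2.88, a difference of 0.46 ± 0.33 (SE). On MA08 (probe 2176) the torpid animals had 2.08, 1.87, 1.65, 1.90 and 1.42, and the summer animals 0.91, 1.28 and 2.61, a difference of 0.18 ± 0.34 (SE). The torpid animals were close together, with an SD of 0.25 and 0.26, and the summer animals were spread over SDs of 0.85 and 0.89. Summer animal 1 was the lowest of the 8 in both probes. Without it the differences were -0.03 and -0.16, and with cyclic loess the median of both was -0.0023, so that no direction could be given for Cyc1.

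The summer animals were unlike each other in Cycs too, but in another order. Summer animal 2 was the lowest of all 8 animals in all 5 Cycs probes. With each probe centred on its own mean and the probes of a gene averaged, summer animals 1 to 3 stood at -1.05, -2.40 and -1.33 for Cycs and at -1.03, -0.09 and 0.52 for Cyc1. Torpid animals 1 to 5 stood at 1.42, 0.99, 0.75, 1.35 and 0.27 for Cycs and at 0.24, -0.03, 0.06, 0.25 and 0.08 for Cyc1. Torpid animals 1 and 4 were thus the highest for Cycs and torpid animal 5 the lowest of the torpid group. Without summer animal 2 the MA07 difference was 2.61 in place of 3.24, and that of MA08 probe 5903 was 2.71 in place of 3.26.

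The distance between the genes differed by animal. The centred Cycs mean minus the centred Cyc1 mean was 1.18, 1.02, 0.70, 1.09 and 0.19 in torpid animals 1 to 5 and -0.01, -2.31 and -1.85 in summer animals 1 to 3. All torpid animals lay above all summer animals, but torpid animal 5 and summer animal 1 came close to each other. These are bulk tissue values, so that fewer cells of a type and less RNA per cell cannot be told apart.

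**Figure D2:**
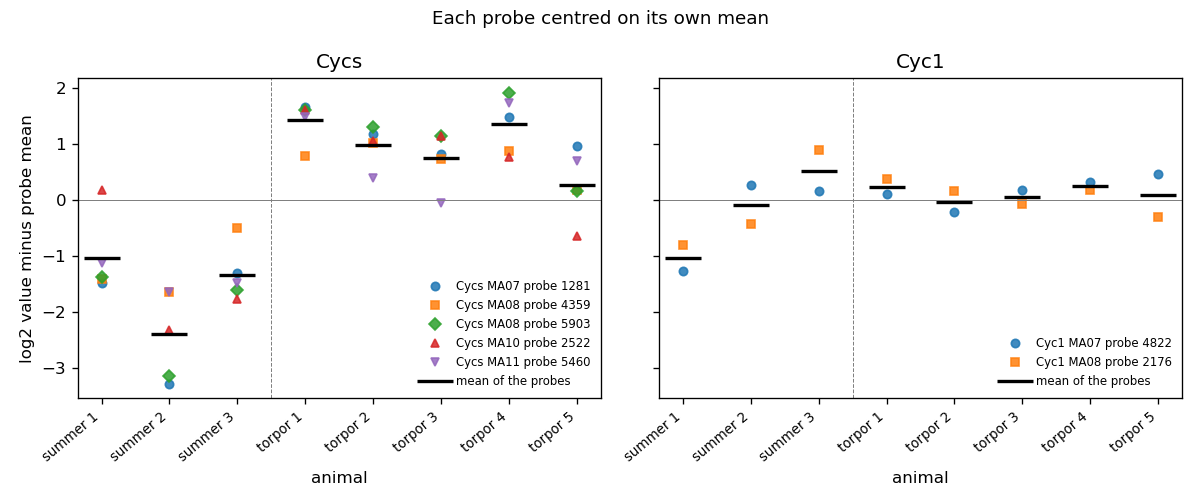
Log2 value of each probe minus its mean over the 8 animals (vertical axis) for every animal (horizontal axis), Cycs on the left and Cyc1 on the right; symbols are probes and black bars their mean. The Cycs means run from -2.40 in summer animal 2 to 1.42 in torpid animal 1, whereas the Cyc1 means of the torpid animals stay between -0.03 and 0.25.

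Within the groups the Cycs probes tended to vary together, but the order of the torpid animals differed between probes. The r below pools both groups, and summer animal 2 was the lowest in every Cycs probe. With the group means removed, Pearson's r over the 8 animals was positive for all 10 pairs of Cycs probes, from 0.07 to 0.84 with a median of 0.52. The highest was between the MA07 probe and MA08 probe 5903, and the lowest between both spots of the shared clone. Pairs of a Cycs and a Cyc1 probe gave r from -0.84 to 0.86, with 5 of 10 positive. The points of each r share their RNA, and for probes of one membrane also the hybridisation, and r is given as a description only.

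Duplicates of the split RNAs set the measurement error. For Cycs the 15 gaps between duplicates ran from 0.02 to 1.64 with a median of 0.30, and 2 exceeded 1. For Cyc1 the 6 gaps ran from 0.09 to 1.199 with a median of 0.54.

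**Figure D3:**
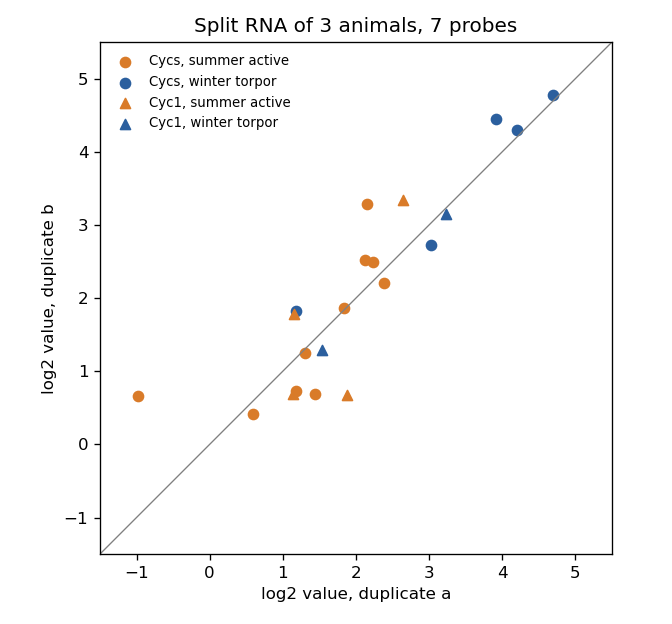
Log2 value of duplicate b (vertical axis) against duplicate a (horizontal axis) of the RNA of summer animals 1 and 2 and torpid animal 5, for the 5 Cycs probes (circles) and 2 Cyc1 probes (triangles); the line marks equal values. The point farthest from the line is the MA10 Cycs probe in summer animal 2, with a gap of 1.64.

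The spots around the members were mostly near 0. Within 10 index positions of each member probe the median difference ran from -0.14 to 0.29. Of these neighbours 1 passed the threshold, Fndc3a beside the MA07 Cycs probe at 2.77. The labels do not state the layout of the membranes, and signal from neighbouring spots was not tested.

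Squirrel RNA was read here by cDNA of the mouse. Both symbols match a protein-coding gene in the RefSeq annotation of the squirrel genome. The testis form of cytochrome c, Cyct, had 0 probes of its own with a single symbol, and binding of related transcripts by the Cycs probes was not tested.

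The genes that act with cytochrome c were taken from lists made from what the protein does. Earlier results of these data were known when the lists were chosen, so their calls are not an independent test. Of 95 measured genes in these lists, each represented by its brightest probe, 1 rose and 0 fell by limma at an adjusted p of 0.05, where 0.259% of all probes were called higher and 0.0502% lower. With no adjustment, 12 were higher and 4 were lower at p under 0.05, where 6.39% of all probes were higher and 5.18% lower. Counts at an unadjusted p under 0.05 in the lists are to be read against these shares. The shares include dim probes, whereas each gene stands by its brightest probe, so the comparison is only rough. The median of the 95 was 0.13.

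Among the genes that reduce cytochrome c, all 7 measured subunits of complex III had positive differences, with a median of 0.73 and 0 past the threshold by limma (3 higher at an unadjusted p under 0.05). With cyclic loess 6 of 7 were positive. The median was 0.25 without summer animal 1 and 1.30 without summer animal 3. Uqcrb, a small subunit near the quinone site, had the largest value. Its brighter probe, on MA10, read 5.02, 4.65, 4.41, 4.71 and 4.03 in torpid animals 1 to 5 and 3.99, 2.12 and 1.77 in the summer animals, a difference of 1.94 ± 0.47 (SE, limma adjusted p = 0.097), and its MA07 probe gave 2.78. The groups did not overlap on MA10, although torpid animal 5 and summer animal 1 were only just apart. The core subunit Uqcrc2 gave 1.14 ± 0.25 by its brightest probe and 0.16 to 0.66 by the other 3. Uqcrfs1, the Rieske iron-sulfur protein that passes electrons to cytochrome c1, gave 1.29, -0.45 and -0.02 by its 3 probes. The 5 probes of Uqcrc1, the other core subunit, ran from -1.04 to 0.42. Complex III assembly factors had a median of 0.16 over 5 genes with 0 called by limma (0 at an unadjusted p under 0.05), with Uqcc2 at 0.46 and Uqcc1 between -0.43 and 0.14 over 4 probes.

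Among the genes that oxidise cytochrome c, Cox6c rose in torpor, and it was the only called gene of all the lists. Cox6c encodes a small nuclear-encoded subunit of cytochrome c oxidase. Its MA11 probe read 4.46, 4.28, 4.23, 4.56 and 4.71 in torpid animals 1 to 5 and 2.74, 1.77 and 2.80 in the summer animals, a difference of 2.01 ± 0.28 (SE, limma adjusted p = 0.015). Its MA07 probe read 2.31, 2.07, 1.90, 2.01 and 2.13 in torpor and -0.10, -0.65 and 0.24 in summer, a difference of 2.25 ± 0.22 (SE, limma adjusted p = 0.0062). Every torpid animal lay above every summer animal by both probes, and summer animal 2 was the lowest, as for Cycs. The limma adjusted p of the MA11 probe was 0.051 without torpid animal 2, 0.076 with cyclic loess and 0.059 with the second duplicates. With the replicate block neither probe passed (limma adjusted p = 0.072 and 0.097).

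Of the 13 measured complex IV subunits, Cox6c included, 10 had positive differences, with a median of 0.47, but with cyclic loess 7 were positive and the median was 0.09. The median was 0.08, 0.15 and 0.79 without summer animals 1, 2 and 3. Cox4i1, the subunit that binds ATP as a regulator, was negative by all 4 probes, from -0.80 ± 0.49 (SE) to -0.12 ± 0.64. Summer animal 3 was the highest summer animal in every one of these probes. By MA07 probe 387 summer animals 1 to 3 read 1.41, 2.29 and 4.48, and the torpid animals 1.68 to 2.61. The negative sign of that probe rests on summer animal 3. Cox5a gave 1.15 ± 0.66 on MA11 and -0.67 ± 0.27 by the same clone on MA08, and -0.08 by a dimmer clone. Without summer animal 3, Cox5a, Cox6b1, Cox7a2 and Cox8a passed beside Cox6c, and so did Uqcr11 of complex III, which made 6 related genes. Without summer animal 1, Uqcrb passed beside Cox6c. Assembly factors of complex IV had a median of 0.12 over 14 genes with 0 called by limma (1 higher at an unadjusted p under 0.05), from -0.87 ± 0.47 for Sco1, a copper chaperone, to 1.12 ± 0.58 for Cox20. The copper carrier Cox17 stood at 1.02 ± 0.29.

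**Figure D4:**
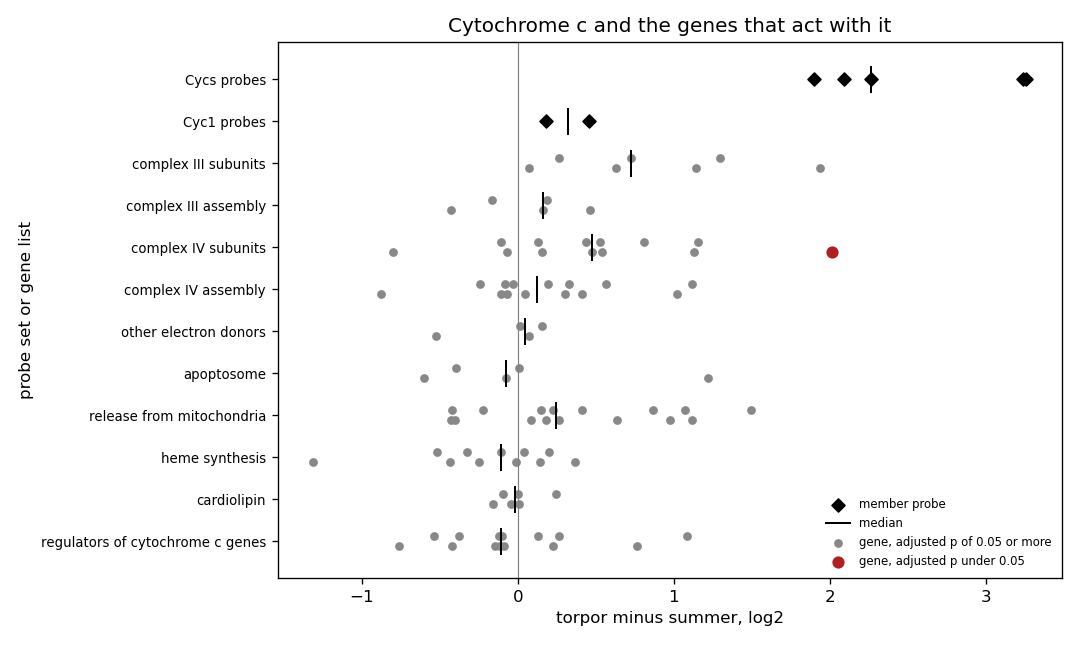
Torpor minus summer difference on the log2 scale (horizontal axis) for the Cycs and Cyc1 probes (diamonds) and for each gene of the related lists by its brightest probe (circles; vertical axis, list), with medians as bars. Cox6c, in red at 2.01, is the only related gene past an adjusted p of 0.05, and list medians lie between -0.11 and 0.73.

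Proteins of other electron routes to or from cytochrome c had a median of 0.05 over 4 genes with 0 called by limma (1 lower at an unadjusted p under 0.05). Suox, sulfite oxidase, stood at 0.02 ± 0.24 (SE) by 1 dim probe, at a signal percentile of 18.9. Shc1 stood at 0.15 and -0.24 by its probes. Chchd4, the oxidoreductase of the import relay into the intermembrane space, stood at -0.52 ± 0.21 (limma adjusted p = 0.38).

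The genes tied to cytochrome c in cell death had no called member by limma. For the apoptosome and the proteins released beside cytochrome c the median was -0.07 over 5 genes, with 1 lower at an unadjusted p under 0.05. Apaf1, the receptor of released cytochrome c, stood at 0.01 ± 0.39 (SE) by 1 dim probe, at a signal percentile of 30.7. Casp9, the caspase that Apaf1 activates, stood at -0.60 ± 0.26 by its brightest probe and between -0.95 and 0.31 over 4 probes. Aifm1, a flavoprotein of the inner membrane, stood at 1.22 and 1.10. For the proteins that hold or release cytochrome c, 12 of 16 genes had positive differences, with a median of 0.25 and 5 higher at an unadjusted p under 0.05. These included Pmaip1, a death-promoting BH3 protein (1.07 ± 0.29 and 0.82 by 2 probes), and Bcl2, which opposes release (1.49 ± 0.46 by the brightest of 5 probes, all positive, the lowest at 0.14, of which 3 share a clone). Bcl2l1, which also opposes release, stood at -0.42 by its brightest probe and at -0.17 and 0.45 by the others.

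Heme, which is joined to both cytochromes, is made by enzymes whose list had a median of -0.11 over 11 genes, with 0 called by limma and 2 lower at an unadjusted p under 0.05. The iron carrier Slc25a37 stood at -1.31 ± 0.41 and Ppox, the enzyme of the last step but one, at -0.51 ± 0.19 by its brightest probe and at -0.24 and 0.20 by the others. Hccs, which attaches the heme, had 0 probes with a single symbol. Genes of cardiolipin, the lipid that holds cytochrome c to the inner membrane, had a median of -0.02 over 6 genes with 0 called by limma (0 at an unadjusted p under 0.05), with Ptpmt1 at 0.25 and Tamm41 at -0.10.

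Factors known to drive cytochrome c transcription had a median of -0.11 over 14 genes with 0 called by limma (2 higher at an unadjusted p under 0.05). The 4 probes of Nrf1, an activator of the cytochrome c promoter, ran from -0.37 to -0.15. The MA07 probe and the lower of those on MA10 were dim, at signal percentiles of 7.6 and 14.6. Ppargc1a, its coactivator in cold-exposed brown fat, stood at -0.76 ± 0.41 and -0.42. Esrrg, an orphan nuclear receptor of oxidative tissues, stood at 1.09 ± 0.29 (limma adjusted p = 0.17) by its brightest probe and at 0.27 and -0.03 by the others. Pprc1, a coactivator related to Ppargc1a, stood at 0.76 ± 0.29 by its brightest probe and at -0.02, -0.09 and 0.07 by the others.

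The genes most like Cycs across the 8 animals were Laptm4a, Acadm, Timm17a, Atp5a1, Dld and Sec11a, out of 3047 genes with at least 3 probes measured in every animal. Likeness is the median of Pearson's r between a gene's probes and the mean Cycs profile, over 8 animals that share their RNA between membranes. Since the groups lie far apart for Cycs, r mostly reflects that gap, and the 6 genes are named as a description. Laptm4a, a lysosomal membrane protein, had a median r of 0.96 and remained highest, at 0.87, when the group means were removed. Acadm, the medium-chain acyl-CoA dehydrogenase, and Timm17a, a subunit of the inner-membrane import channel, also had 0.96. Atp5a1, the alpha subunit of ATP synthase, had 0.95, as did Dld, the shared dehydrogenase of the 2-oxoacid complexes. Sec11a, a catalytic subunit of the signal peptidase, had 0.93, but one of its 3 probes gave -0.52.

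Timm17a and Atp5a1 had an even r across membranes, from 0.95 to 0.98 and from 0.95 to 0.96 over their 3 probes on 3 membranes. The MA08 and MA11 probes of Timm17a are the same clone. Timm17a differences were 1.36 on MA07, 1.26 on MA08 and 2.04 on MA11, and only that of MA11 passed the threshold. The MA11 probe of Timm17a read 4.12, 3.76, 3.09, 3.68 and 3.31 in torpid animals 1 to 5 and 1.89, 1.03 and 1.73 in the summer animals. The 3 probes of Atp5a1 gave differences of 2.92, 2.498 and 2.79, with summer animal 2 the lowest in each, as in the Cycs probes. Of the listed subunits of complexes III and IV with at least 3 such probes, Cox7c came highest, at rank 123 with a median r of 0.66. Cox4i1 ranked 2489 and Uqcrfs1 2332. Cox6c and Uqcrb, with 2 probes each, were not ranked.

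Markers of the tissue and of other cell types gave no called probe by limma. Of 12 brown adipocyte markers 7 were measured, with 0 of 11 probes at an unadjusted p under 0.05; Ucp1, the defining gene, had 0 probes with a single symbol, so the label could not be checked by it. The mean centred level of the 7 ran from -0.33 to 0.01 in torpid and from 0.13 to 0.17 in summer animals, without overlap. Of the 7 genes 2 had positive differences, and Zic1 and Dio2 were dim, at signal percentiles of 17.1 and 13.4. How often other sets of genes lie apart in this direction was not counted, so nothing is read from the separation. Skeletal muscle markers (11 of 20 measured) ran from -0.50 to 0.40 in torpid and from -0.24 to 0.56 in summer animals. Immune markers (9 of 15 measured) ran from -0.22 to 0.17 in torpid and from -0.13 to 0.45 in summer animals, with 7 of 20 probes at an unadjusted p under 0.05, 5 of them lower and 2 higher, against 11.6% of all probes. The 2 higher were probes of Lcp1, whose MA07 probe was among the 5 lower. Adipocyte, blood, endothelial and nerve markers overlapped between the groups. The part of any of these cell types in the Cycs values was not tested.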

How the data were processed

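The authors deposited linear spot intensity values for 11 columns on each of 4 membranes, scaled so that the column median is 1 with empty cells counted as lowest. Neither the labels nor the headers state the image analysis or background treatment, so signal over background is unknown. Here log2 values were taken and duplicates averaged. Torpor minus summer was then fitted separately on each of the membranes (R 4.3.3, limma 3.58.1, lmFit with eBayes), wherever both groups had values for 2 or more animals. Benjamini-Hochberg adjustment ran over all 37848 such probes together, and calls used 0.05. The fit was tested on simulated data.

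Gene symbols came from the platform annotation, which can be old, and only probes with 1 symbol were named. The members and gene lists were chosen with earlier results of these data known. Each gene of a list was represented by its probe of highest mean signal percentile. Named genes were the members, a fixed set, called list genes or the 2 of smallest p per list, and the 6 most like Cycs, taken over probes with values in all 8 animals. Same-numbered animals of the groups are different animals, and the number was used as a block only as an alternative.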

Additional observations from a re-analysis of the deposited data

How the results depend on the processing

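The median Cycs difference stayed positive and within 1 pooled SD of its value under all 15 alternatives run for it, from 2.05 with cyclic loess to 2.83 without summer animal 1, and each Cycs probe moved by less than its own SD. The median Cyc1 difference changed sign with cyclic loess (-0.0023) and without summer animal 1 (-0.10). The count of related genes past the threshold by their brightest probe was 1 as reported. It was 2 with quantile normalization and with the first duplicates, and 0 with cyclic loess, with the second duplicates and with the replicate block. With 1 animal left out it ran from 0 to 6. The MA07 probe of Cox6c still passed with cyclic loess, with the second duplicates and without torpid animal 2 (limma adjusted p = 0.0070, 0.041 and 0.029). The count over all probes, 117 as reported, was 63 with cyclic loess, 76 with a floor at the 10th percentile, 240 without the dimmest 25% of probes, 176 with the first and 38 with the second duplicates, and 228 with a trended robust prior. It was 32 with the replicate block and from 17 to 347 with 1 animal left out. The causes of these changes were not tested. The replicate numbers pair nothing in the data: same-numbered animals' deviations from their group means correlated at 0.01 to 0.02. The number of animals limits the precision.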
